A study of Mus musculus with 9 samples.

Results

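The type 2 vomeronasal receptors (V2Rs, gene symbols beginning with Vmn2r) were followed across 9 expression arrays of mouse retina. A probe set, the group of array probes summarised to 1 value, was taken as a member when at least 1 of its annotated genes was a Vmn2r gene and none was a type 1 receptor (Vmn1r). This gave 135 of the 41345 probe sets on the array, of which 25341 carried a gene symbol. Of the 135, 117 named 1 gene and 18 named several genes. In each class 1 pair of rows held the same 9 values, so 116 and 17 distinct rows were counted. The family was picked for description because of its differences from control at both doses, so these differences, and the counts of calls made from them, are given as a description and as no evidence of a change. The difference between the doses was not part of that choice and was tested, although it uses the same treated arrays.

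The arrays measured total RNA of retinas from 6-week-old male C57BL/6 mice, 7 days after 1 μL was injected into the vitreous. There were 3 groups of 3 arrays: a control group, a group given 1 μg and a group given 10 μg of an antibody against complement component C5 that binds its MG4 domain. All 3 groups were injected. The control injection is PBS in the sample labels and an IgG1 isotype antibody in the paper's methods, so these arrays are called control. Each array held a pool of 4 retinas from 4 mice, and the sources do not say clearly if 1 mouse gave both eyes to different pools. The spread between arrays is therefore that between pools.

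V2Rs are G protein-coupled receptors of class C, with a long extracellular domain that binds the ligand. In the mouse they are known from sensory neurons of the basal layer of the vomeronasal organ, where they detect peptide and protein pheromones, couple to the G protein subunit Gnao1 and open the channel Trpc2. The genes stand in large clusters of recent copies, so that a short array probe often matches more than 1 gene. Genes of family C (Vmn2r1 to Vmn2r7) are expressed together with receptors of the other families in the same neuron.

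The probe sets named 127 Vmn2r genes. In RefSeq (GRCm38.p6), 54 of these lie on chromosome 7, 31 on chromosome 17, and the rest on 7 other chromosomes with 1 to 11 genes each. Of the 127 genes, 112 had a probe set of their own, 35 were named by several-gene probe sets and 20 by both. The 10 probe sets that named at least 7 genes all fell on the chromosome 7 genes Vmn2r29 to Vmn2r51 and their neighbour Gm10302, and formed a pair of groups, which were defined from the annotation after their values were known. The first group, of 7 probe sets, named Vmn2r32, Vmn2r34, Vmn2r37 and Vmn2r42 among 8 to 15 genes. The second, of 3 probe sets, named Vmn2r31, Vmn2r29, Vmn2r38 and Vmn2r44 among 7 to 17 genes. The other 7 several-gene probe sets named 2 or 3 genes.

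How alike these copies are is shown by the 110 bases just before the annotated start of the gene, taken from RefSeq (GRCm38.p6). The lines below hold genes of the first group (Vmn2r32, Vmn2r30, Vmn2r51, Vmn2r34), genes named together with Vmn2r31 (Vmn2r31, Vmn2r39), and a pair of genes outside both groups (Vmn2r117, Vmn2r3). Each is written from its 5′ to its 3′ end, and capitals mark bases that differ from Vmn2r32. The alignment used here placed gaps between the windows of Vmn2r117 and Vmn2r3 and that of Vmn2r32, so these 2 carry no capitals.
Vmn2r32, chr7:7479974-7480083, minus strand: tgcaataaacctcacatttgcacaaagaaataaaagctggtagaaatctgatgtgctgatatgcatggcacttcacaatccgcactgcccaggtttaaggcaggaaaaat
Vmn2r30, chr7:7337494-7337603, minus strand: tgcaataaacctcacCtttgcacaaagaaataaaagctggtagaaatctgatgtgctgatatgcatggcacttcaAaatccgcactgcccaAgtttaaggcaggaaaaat
Vmn2r51, chr7:10105660-10105769, minus strand: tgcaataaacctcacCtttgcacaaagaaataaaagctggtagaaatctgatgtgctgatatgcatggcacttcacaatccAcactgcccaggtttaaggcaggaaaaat
Vmn2r34, chr7:7689399-7689508, minus strand: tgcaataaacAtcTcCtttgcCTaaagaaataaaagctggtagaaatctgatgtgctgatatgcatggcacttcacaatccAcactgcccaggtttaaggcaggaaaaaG
Vmn2r31, chr7:7399628-7399737, minus strand: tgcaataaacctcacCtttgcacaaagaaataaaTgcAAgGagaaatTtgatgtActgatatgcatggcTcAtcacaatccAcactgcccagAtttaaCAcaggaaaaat
Vmn2r39, chr7:9030683-9030792, minus strand: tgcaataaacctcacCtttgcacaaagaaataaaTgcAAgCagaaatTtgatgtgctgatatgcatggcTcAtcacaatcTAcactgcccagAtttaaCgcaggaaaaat
Vmn2r117, chr17:23479598-23479707, minus strand: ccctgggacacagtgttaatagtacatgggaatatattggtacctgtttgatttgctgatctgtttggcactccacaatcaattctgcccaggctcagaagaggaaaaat
Vmn2r3, chr3:64287418-64287527, minus strand: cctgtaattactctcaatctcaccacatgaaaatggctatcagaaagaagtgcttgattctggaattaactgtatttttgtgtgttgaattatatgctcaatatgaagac

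The window of Vmn2r30 differed from that of Vmn2r32 at 3 of 110 bases, that of Vmn2r51 at 2, that of Vmn2r34 at 7, that of Vmn2r39 at 12 and that of Vmn2r31 at 13. The window of Vmn2r49 was identical to that of Vmn2r32, and the window of Vmn2r38 was identical to that of Vmn2r31. Over 250 bases before the start, Vmn2r3 shared 46.6% of aligned positions with Vmn2r32, and Vmn2r117 shared 61.3%. Among 114 V2R genes with 1 entry in the table, 140 pairs were named together by a probe set of at least 7 genes, and their median identity was 86.1%, against 44.9% for the 6301 other pairs. Of the 140 pairs, 58 (41.4%) were at least 90% identical, against 61 (0.968%) of the others. The others include pairs from the same chromosome 7 genes, such as Vmn2r30 with Vmn2r39 (93.2%) and Vmn2r32 with Vmn2r43 (70.4%). Of the 1880 pairs of 1 gene named by such a probe set and 1 gene outside, 0 were at least 90% identical. Being named together was thus not separated from lying in the same block of genes. Vmn2r37 and Vmn2r42 differed from the rest of the first group in this stretch: they were 84.4% identical to each other, and 41.3% and 40.5% identical to Vmn2r32. The bases TATAAA, on either strand, were found in 12.4% of all 32851 windows of 250 bases in the table, in 25 of the 114 V2R windows and in 0 of the 20 windows of genes in the groups above. These windows are not the sequences of the array probes, which were not analysed here.

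Retinal genes measured as a check of the tissue (18, among them the rod transducin Gnat1) had mean log2 values of 8.38 to 13.51. The V2R probe sets of 1 gene had mean values of 1.86 to 6.83 over the 9 arrays, and 99 of 116 (85.3%) lay below 4.98, the first quartile of all named probe sets. The several-gene probe sets had mean values of 2.20 to 7.04, and 4 of 17 lay below that quartile. The values of different probe sets do not compare amounts of RNA, since probes differ in how they bind. Of the genes known from vomeronasal sensory neurons, 19 were measured, with mean values of 2.21 to 11.61. Gnao1 (11.61), B2m (10.64) and Gnai2 (9.60) stood highest, and all 3 are expressed in other cells too. Trpc2 stood at 7.13, the olfactory marker Omp at 5.61 and Calr4 at 3.79, and the H2-M10 genes, histocompatibility genes expressed in V2R neurons, at 3.68 to 5.82. In pooled tissue a change in the number of cells of a type and a change of RNA per cell cannot be told apart.

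The several-gene probe sets were higher than control at both doses. At 10 μg all 17 had a positive difference from control, with a median of 0.64 on the log2 scale (1.56-fold) and a range of 0.19 to 0.93. At 1 μg 16 of 17 did, with a median of 0.42 (1.33-fold) and a range of -0.03 to 0.64. The medians over all named probe sets were 0.02 at 10 μg and 0.04 at 1 μg, and 55.7% and 62.8% of them had a positive difference. These contrasts share the control arrays. In 11 of 17 probe sets all 10 μg arrays lay above all control arrays, against 14.3% of all named probe sets and 28.1% of those naming several genes. At 1 μg this held for 4 of 17, against 12.5% and 18%. None of the 17 was over 2-fold higher at either dose, against 1.05% of all named probe sets at 10 μg and 0.683% at 1 μg.

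**Figure D1:**
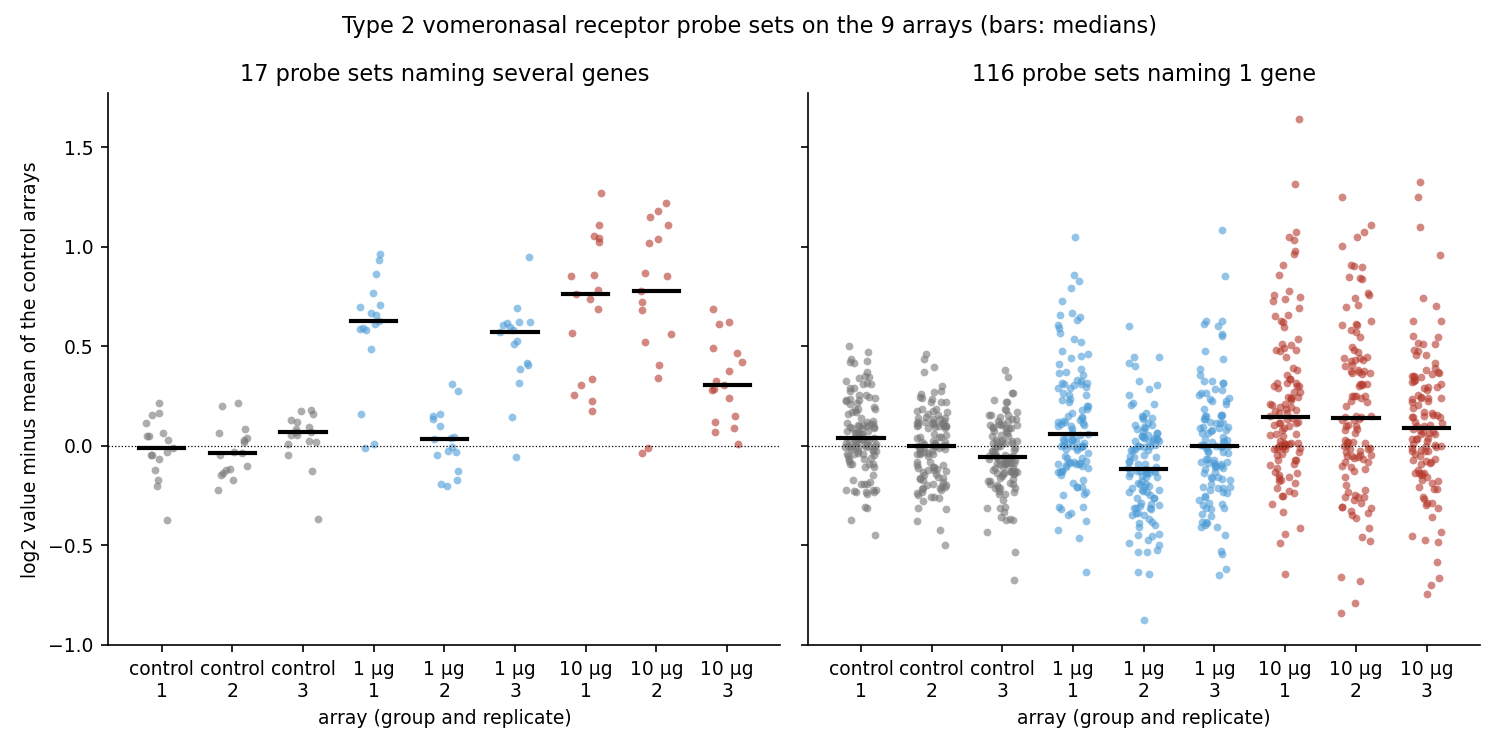
Log2 value minus the mean of the 3 control arrays (vertical axis) on each array (horizontal axis: control, 1 μg, 10 μg, replicates 1 to 3), for the 17 several-gene probe sets (left) and the 116 probe sets of 1 gene (right); a point is a probe set and a bar the median. On the left the medians of 1 μg replicate 2 and 10 μg replicate 3, 0.03 and 0.31, lie below those of the other arrays of their groups; on the right all medians lie between -0.12 and 0.15.

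The median shift was larger where many copies were named, although single probe sets did not follow this order. The 7 probe sets that named Vmn2r32 had a median difference of 0.82 at 10 μg (range 0.64 to 0.93) and of 0.44 at 1 μg (0.31 to 0.47). The 3 that named Vmn2r31 had medians of 0.52 at 10 μg (0.50 to 0.70) and 0.43 at 1 μg (0.39 to 0.64). The 7 that named 2 or 3 genes had medians of 0.30 at 10 μg and 0.34 at 1 μg. Across the 17 probe sets the number of genes named and the difference at 10 μg had a Spearman rho of 0.64 and a Pearson r of 0.67. At 1 μg these were 0.31 and 0.39. The 17-gene probe set was at 0.50 at 10 μg, below the 3-gene probe set of Vmn2r85, Vmn2r86 and Vmn2r84 at 0.70. Signal levels differed too. Of the 7 naming 2 or 3 genes, 4 had means below the first quartile of all named probe sets, against 0 of the 10 naming at least 7. Their median control levels were 4.55 and 5.34. The part of the level was not tested. This is a description: many of the probe sets name the same genes and all share the control arrays.

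**Figure D2:**
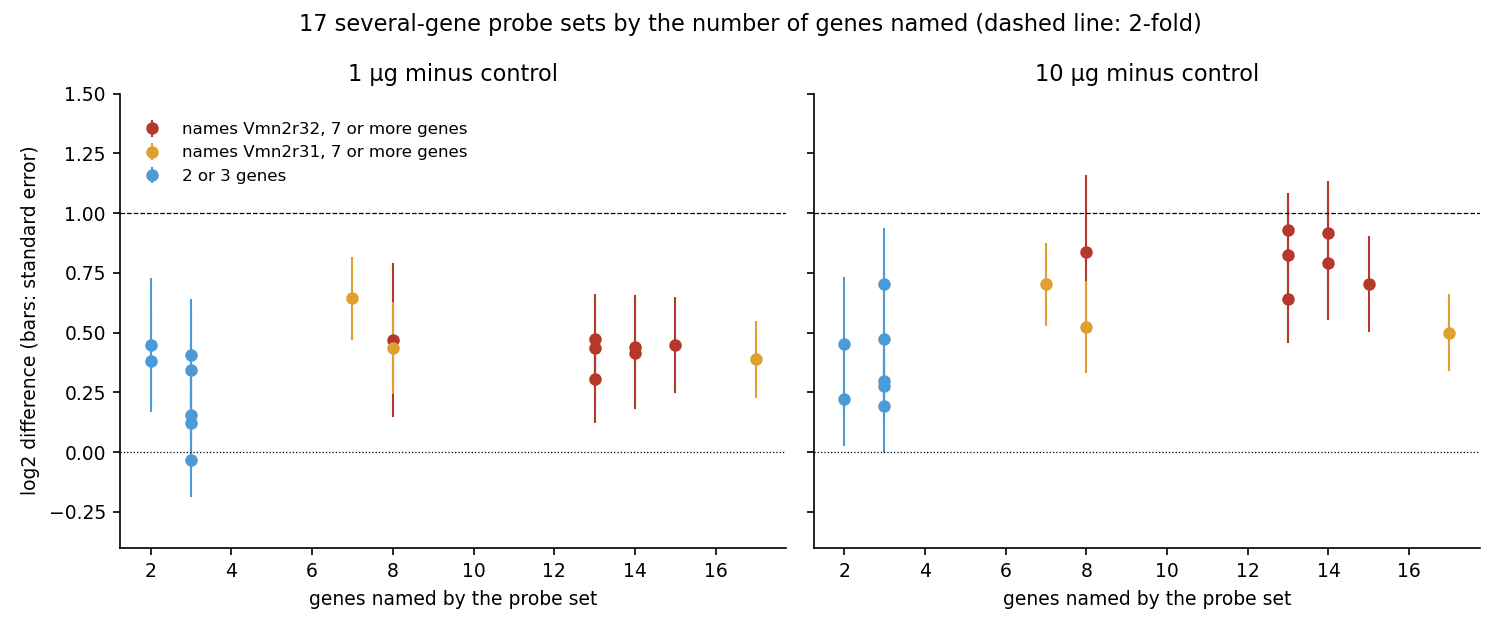
Log2 difference from control (vertical axis, bars show the standard error) against the number of genes that a probe set names (horizontal axis), at 1 μg (left) and 10 μg (right), for the 17 several-gene probe sets; the dashed line marks 2-fold. At 10 μg the probe sets naming Vmn2r32 lie between 0.64 and 0.93, and those naming 2 or 3 genes between 0.19 and 0.70.

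The highest difference among the several-gene probe sets was that of a probe set naming 13 genes, beginning with Vmn2r42, Vmn2r34 and Vmn2r32. Its log2 values were 4.98, 4.59 and 4.87 in control retinas, 5.30, 5.12 and 5.43 at 1 μg and 5.83, 5.96 and 5.42 at 10 μg. All arrays of both doses lay above all control arrays, and the difference from control was 0.93 at 10 μg and 0.47 at 1 μg (standard error 0.156 for both).

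A probe set of 14 genes, beginning with Vmn2r51 and Vmn2r32, had 4.98, 4.91 and 5.14 in control retinas, 5.64, 5.11 and 5.61 at 1 μg and 6.12, 6.23 and 5.43 at 10 μg. The 1 μg array of replicate 2 lay within the control range, and the 10 μg array of replicate 3 lay below 2 of the 1 μg arrays. A probe set of 8 genes, beginning with Vmn2r42 and Vmn2r32, had 4.89, 5.11 and 5.27 in control retinas, 5.95, 5.12 and 5.60 at 1 μg and 6.35, 6.26 and 5.15 at 10 μg. Here the 10 μg array of replicate 3 lay inside the control range. The difference of the 14-gene probe set at 10 μg was 0.92 (standard error 0.218) and that of the 8-gene probe set was 0.84 (standard error 0.324).

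A further 13-gene probe set, beginning with Vmn2r32 and Vmn2r42, had 5.90, 5.72 and 5.91 in control retinas, 6.50, 5.89 and 6.45 at 1 μg and 6.89, 6.95 and 6.17 at 10 μg, a difference of 0.82 at 10 μg (standard error 0.228). Its 1 μg array of replicate 2 lay within the control range, and all its 10 μg arrays lay above control. Another of 14 genes, beginning with Vmn2r42 and Vmn2r32, was at 0.79, and one of 15 genes, beginning with Vmn2r34 and Vmn2r37, at 0.70. The probe set naming the most genes, 17 of them beginning with Vmn2r29 and Vmn2r33, belonged to the second group. It had 5.57, 5.65 and 5.63 in control retinas, 6.29, 5.59 and 6.15 at 1 μg and 6.18, 6.18 and 5.99 at 10 μg. All 10 μg arrays lay above control, whereas 1 μg replicate 2 lay within it, and the difference at 10 μg was 0.50 (standard error 0.16). Away from this block, the probe set of Vmn2r85, Vmn2r86 and Vmn2r84 had 5.19, 5.23 and 5.36 in control retinas, 6.19, 5.14 and 5.67 at 1 μg and 6.04, 6.13 and 5.72 at 10 μg. It showed the same low array at 1 μg, with a difference of 0.70 at 10 μg (standard error 0.233). The lowest differences at 10 μg were those of the probe sets of Vmn2r-ps11, Vmn2r7 and Vmn2r6 (0.19), of Vmn2r39 and Vmn2r50 (0.22), and of Vmn2r121, Vmn2r125 and Vmn2r122 (0.28).

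Replicate arrays of a group did not hold the same shift. The median over the 17 probe sets, relative to the control mean, was -0.01, -0.04 and 0.07 on the control arrays, 0.62, 0.03 and 0.57 on the 1 μg arrays and 0.76, 0.78 and 0.31 on the 10 μg arrays. Replicate 2 of the 1 μg group was the lowest of its group in 14 of 17 probe sets and did not exceed the highest control array in 13. Replicate 3 of the 10 μg group was the lowest of its group in 14 of 17 and did not exceed the highest control array in 4. Without 10 μg replicate 3 the median difference at 10 μg was 0.81, and 5 of the 17 probe sets were over 2-fold with an unadjusted limma p below 0.05 (1.49% of all named probe sets in the same fit). On all arrays this count was 0, against 1.13%. Without 1 μg replicate 1 the median difference at 1 μg was 0.27, and without 1 μg replicate 2 it was 0.60.

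The same arrays were low in other multicopy probe sets. The 24 type 1 receptor probe sets naming at least 7 genes had medians of 1.63, 0.63 and 1.93 on the 1 μg arrays and 2.50, 2.59 and 1.30 on the 10 μg arrays, relative to the control mean. The 32 probe sets of multicopy genes of the Y chromosome had medians of 1.56, 0.33 and 1.79 on the 1 μg arrays and 2.19, 2.37 and 1.30 on the 10 μg arrays. The 10 V2R probe sets of at least 7 genes had 0.66, 0.07 and 0.59 on the 1 μg arrays and 0.94, 1.03 and 0.30 on the 10 μg arrays, so their shift was smaller than that of either set on each of these 6 arrays. Of all 205 named probe sets with at least 7 genes, which include both receptor families, 109 (53.2%) had all 10 μg arrays above control, against 8 of the 10 V2R probe sets. The difference between the families was not tested. What the multicopy probe sets share, besides the arrays, was not tested.

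**Figure D3:**
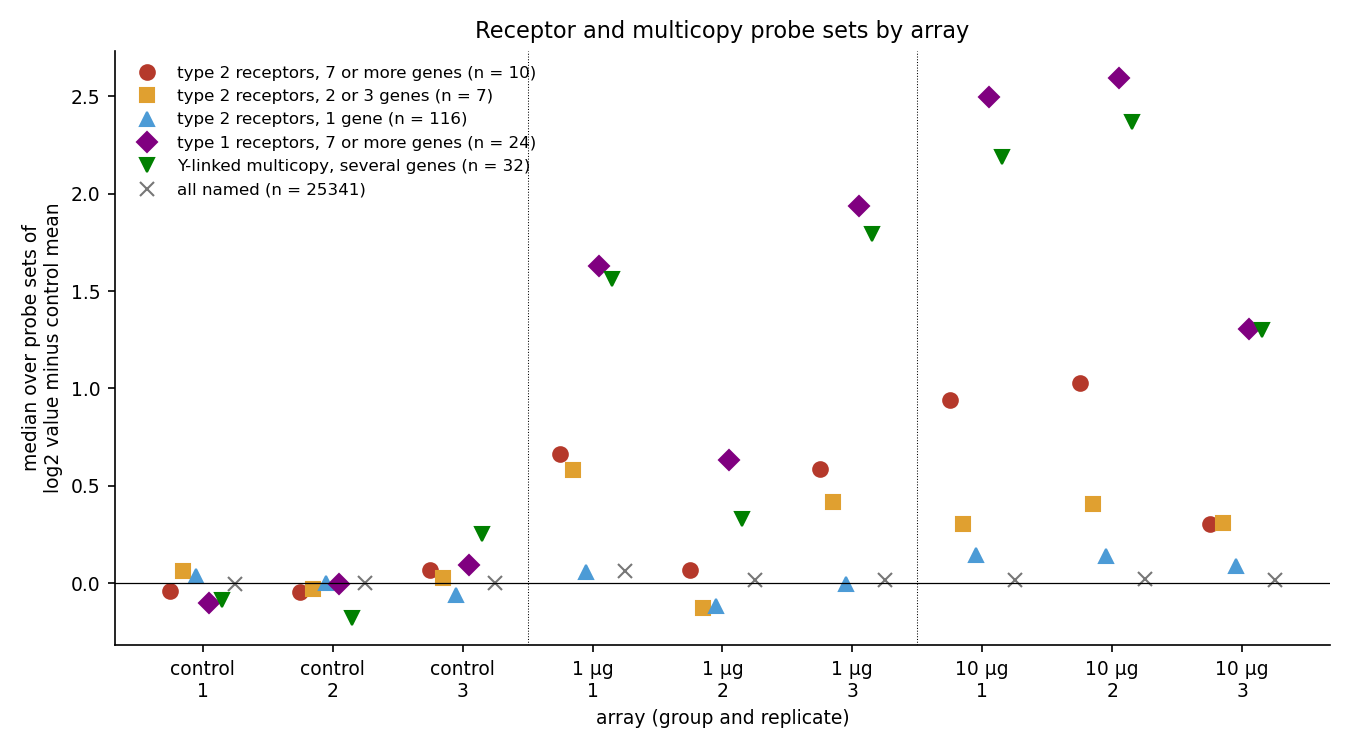
Median over probe sets of the log2 value minus the control mean (vertical axis) on each of the 9 arrays (horizontal axis), by class of probe set. The V2R probe sets of at least 7 genes, the type 1 receptors and the Y-linked genes share the low arrays 1 μg replicate 2 and 10 μg replicate 3, whereas all named probe sets lie close to 0.

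Where the same gene also had a probe set of its own, that probe set mostly had the smaller difference. For 15 of the 20 genes with both, the gene's own difference at 10 μg was below the median of the several-gene probe sets that name it. The median over the 20 genes was 0.27 for the own probe sets and 0.56 for the shared ones. Many of these genes are named by the same several-gene probe sets, so they are not 20 separate comparisons. Signal levels differed too. For Vmn2r30 the control level was 1.77 on its own probe set and 5.34 on the shared ones, and for Vmn2r29 it was 6.15 and 5.62. The part of the level was not tested. Vmn2r51 had 3.50, 3.19 and 3.50 in control retinas, 3.19, 3.19 and 3.08 at 1 μg and 3.35, 3.14 and 2.65 at 10 μg on its own probe set. That is a difference of -0.35 at 10 μg, against a median of 0.85 over the 4 several-gene probe sets that name it. Vmn2r37 was an exception, with 0.90 on its own probe set and a median of 0.81 over 8 shared ones. A several-gene probe set gives 1 value for all the genes it names. Which of these genes its probes match was not analysed, so its difference cannot be assigned to any single gene.

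Among the probe sets of 1 gene, the differences from control were small. At 10 μg the median was 0.16 (1.12-fold, range -0.49 to 1.01), with 81 of 116 positive and 35 negative. At 1 μg it was -0.02 (range -0.59 to 0.62), with 53 positive and 63 negative. Of all probe sets of 1 gene, 54.9% were positive at 10 μg and 62.3% at 1 μg. All 10 μg arrays lay above control in 20 of 116 (17.2%), against 13.2% of all probe sets of 1 gene, and below control in 3 (Vmn2r58, Vmn2r83 and Vmn2r87), against 8.59%. At 1 μg these counts were 2, against 12%, and 5, against 2.48%. Vmn2r117 was the only member over 2-fold, at 1.01 on the log2 scale at 10 μg. Vmn2r16, at 0.96, and Vmn2r5, at 0.95, lay just under 2-fold.

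The counts of calls against control rest on the contrasts by which the family was picked, so they test nothing and are read no further. Over both classes, 0 of the 133 probe sets passed limma's fit with Benjamini-Hochberg adjustment at 10 μg or at 1 μg, where 0.0197% and 0% of all named probe sets did. An unadjusted p below 0.05 was found for 35 at 10 μg, against 17.4% of all named probe sets, and for 10 at 1 μg, against 9.04%. The ordinary test gave 27 at 10 μg and 5 at 1 μg, and 0 after adjustment. The adjusted count at 10 μg was 8 without 10 μg replicate 3 and 3 without 1 μg replicate 2. The unadjusted count at 1 μg was 4 without control replicate 2, 5 without 1 μg replicate 3, 19 without 1 μg replicate 2 and 18 without 10 μg replicate 3. For the ordinary test and these refits no share of all named probe sets is given, so their counts have no background.

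The difference between the doses, 10 μg minus 1 μg, does not use the control values. Its limma test does draw on the control arrays, since the fit to the 3 groups shares its estimate of variance. No V2R probe set passed limma's test with Benjamini-Hochberg adjustment, nor did any other named probe set (0%). With no adjustment, 23 of the 133 were higher at 10 μg with a p below 0.05 and 2 lower, against 3.93% and 6.45% of all named probe sets; the ordinary test gave 17 in either direction. These 25 were 16 without 10 μg replicate 1 and 20 in a fit to the dose groups alone. They were 30 without 10 μg replicate 3, and 29 with array weights and with median centring. No share of all named probe sets is given for the ordinary test or for these refits. The several-gene probe sets had a median difference of 0.26 (range -0.16 to 0.48), with 16 of 17 positive (46.9% of all named probe sets) and none with all 10 μg arrays above all 1 μg arrays (4.48% of all named probe sets). This median was 0.10 without 1 μg replicate 2 and 0.17 without 10 μg replicate 1. By group it was 0.38 for the probe sets naming Vmn2r32, 0.09 for those naming Vmn2r31 and 0.13 for those of 2 or 3 genes, against -0.01 over all named probe sets. Of all several-gene probe sets 59.6% had a positive difference between the doses, and of all those with at least 7 genes 80%. The 24 type 1 receptor probe sets of at least 7 genes were all positive, with a median of 0.74. So were the 32 Y-linked ones, with 0.69, and the 10 V2R ones of at least 7 genes, with 0.35. These classes were not tested against each other.

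The probe sets of 1 gene had a median difference between the doses of 0.13 (range -0.44 to 0.97). Of the 116, 86 (74.1%) were positive, against 45.9% of all probe sets of 1 gene. In all, 19 (16.4%) had all 10 μg arrays above all 1 μg arrays, against 4.39% of all probe sets of 1 gene, and 2 had them all below, against 9.68%. An unadjusted p below 0.05 with a higher value at 10 μg was found for 22 (19.0%), against 3.78%. The median was 0.08 without 1 μg replicate 2. Of the 180 type 1 receptor probe sets of 1 gene, 31 (17.2%) had all 10 μg arrays above all 1 μg arrays. Of these 180, 80.6% had a positive difference, and their median was 0.16. For the 1108 olfactory receptor probe sets of 1 gene these values were 10.0%, 70.7% and 0.11. The difference between these families was not tested. Low signal went with this direction in the array as a whole. Of the 2528 probe sets of 1 gene with a mean below 4, 11% had all 10 μg arrays above all 1 μg arrays and the median difference was 0.09, against 19.5% and 0.16 for the 82 V2R probe sets below 4. For the 34 V2R probe sets with a mean of at least 4 the median difference was 0.06, against -0.02 for all 20993 such probe sets. Below 4, a positive difference was found for 69.3% of the 2528 and 78.0% of the 82 V2R probe sets. From 4 upward it was found for 43.1% of the 20993 and 64.7% of the 34. Over the 116 the mean value and this difference had a Spearman rho of -0.29, and over all 23521 probe sets of 1 gene it was -0.21. The part of the signal level in the result was not tested.

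**Figure D4:**
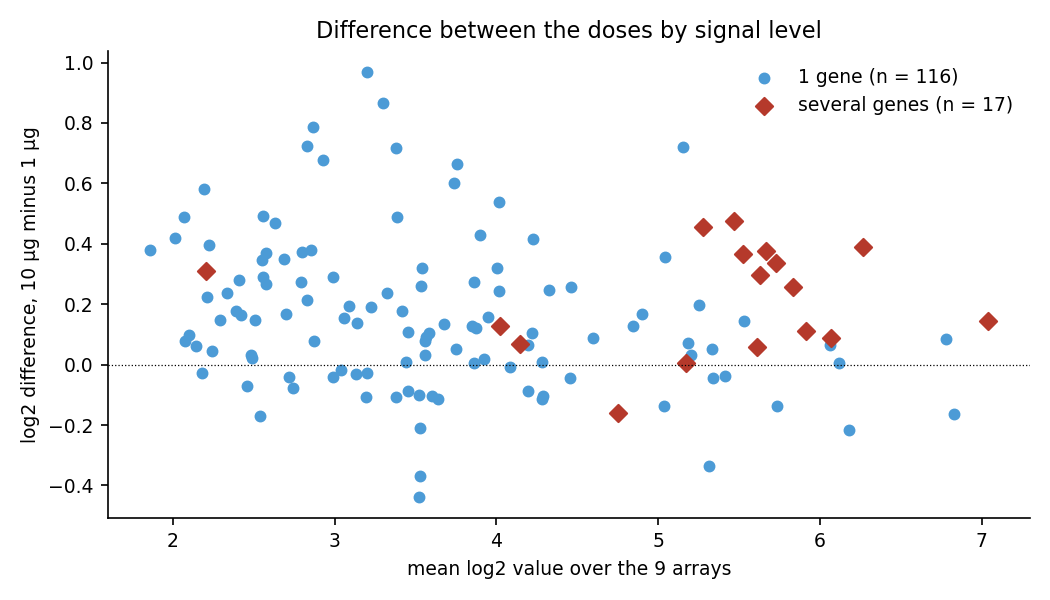
Log2 difference between the doses, 10 μg minus 1 μg (vertical axis), against the mean log2 value over the 9 arrays (horizontal axis), for the 116 probe sets of 1 gene (circles) and the 17 of several genes (diamonds). The highest point is Vmn2r37, at 0.97, and 86 of the 116 circles (74.1%) lie above 0, against 45.9% of all probe sets of 1 gene.

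Vmn2r37, a receptor gene of the chromosome 7 cluster, had the smallest adjusted p of all members between the doses. Its log2 values were 2.95, 2.94 and 2.87 in control retinas, 2.72, 2.71 and 3.13 at 1 μg and 3.99, 3.93 and 3.55 at 10 μg. All 10 μg arrays lay above all others, while the 1 μg and control arrays overlapped. The difference between the doses was 0.97 (standard error 0.144, 95% confidence interval 0.64 to 1.30), with an adjusted p of 0.253 from limma. This difference was the highest of the 116 probe sets of 1 gene, and its interval is not corrected for that choice.

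Vmn2r5, of family C, had 3.02, 2.75 and 3.09 in control retinas, 3.06, 2.55 and 3.52 at 1 μg and 3.64, 3.80 and 4.28 at 10 μg. Its 10 μg arrays lay above all others, and the difference between the doses was 0.87 (standard error 0.247, adjusted p = 0.416 from limma). Vmn2r98 had 2.90, 2.35 and 2.52 in control retinas, 3.22, 2.19 and 2.40 at 1 μg and 3.64, 3.43 and 3.10 at 10 μg. The doses overlapped in Vmn2r98, through 1 μg replicate 1, with a difference of 0.79 (standard error 0.268, adjusted p = 0.428 from limma). Vmn2r16 had 3.11, 3.74 and 3.17 in control retinas, 3.69, 3.78 and 3.42 at 1 μg and 4.65, 4.41 and 3.82 at 10 μg. Its 10 μg arrays lay above all others, and above the 1 μg arrays by as little as 3.82 against 3.78, with a difference between the doses of 0.66 (adjusted p = 0.442 from limma). Vmn2r37, Vmn2r5, Vmn2r16 and Vmn2r117 were the 4 highest against control at 10 μg. High 10 μg arrays were thus part of their choice, and their differences between the doses are a description.

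Vmn2r117 had 2.96, 2.71 and 3.16 in control retinas, 3.35, 2.81 and 3.56 at 1 μg and 4.59, 3.38 and 3.90 at 10 μg. Its 10 μg arrays spread over more than 1 unit on the log2 scale and overlapped the 1 μg arrays, with a difference between the doses of 0.72 (standard error 0.301, adjusted p = 0.475 from limma). In the other direction, Vmn2r61 (-0.44), Vmn2r23 (-0.37) and Vmn2r87 (-0.34) had the lowest differences between the doses. Vmn2r87 had 5.27, 5.48 and 5.78 in control retinas, 5.66, 5.21 and 5.29 at 1 μg and 5.02, 5.05 and 5.08 at 10 μg. Its 10 μg arrays lay below all others (adjusted p = 0.481 from limma), whereas those of Vmn2r61 and Vmn2r23 overlapped the 1 μg arrays (adjusted p = 0.582 and 0.589 from limma). Vmn2r87 was also among the 4 lowest against control at 10 μg, so its difference between the doses is a description too.

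**Figure D5:**
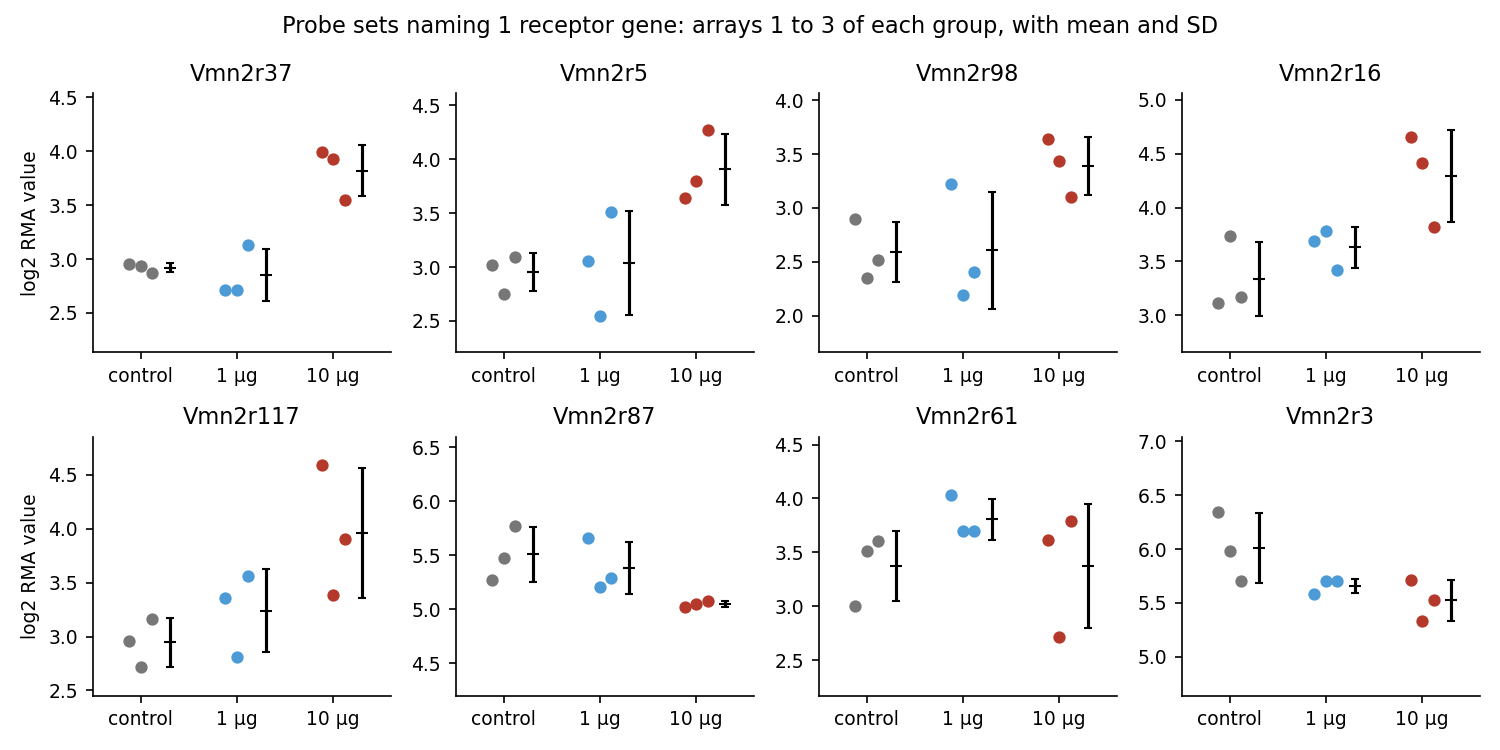
Log2 value (vertical axis, 2.4 units in every panel) on the 3 arrays of each group (horizontal axis: control, 1 μg, 10 μg), with the mean and SD beside them, for 8 probe sets of 1 receptor gene. The 10 μg arrays lie above all others for Vmn2r37, Vmn2r5 and Vmn2r16 and below all others for Vmn2r87.

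The receptors of family C differed in direction. The median over their 7 probe sets was -0.00 at 10 μg and 3 of 7 were positive. Vmn2r5 was at 0.95, Vmn2r6 at 0.39 and Vmn2r7 at 0.36, whereas Vmn2r4 was at -0.00, Vmn2r2 at -0.31, Vmn2r1 at -0.36 and Vmn2r3 at -0.49. Vmn2r3 had 6.35, 5.98 and 5.70 in control retinas, 5.59, 5.70 and 5.70 at 1 μg and 5.72, 5.33 and 5.52 at 10 μg, so that 1 array of the 10 μg group lay above the lowest control array. The 10 μg and 1 μg arrays of Vmn2r3 overlapped as well. Vmn2r1 had 5.46, 5.48 and 5.98 in control retinas, 5.64, 5.33 and 4.99 at 1 μg and 5.54, 5.33 and 4.97 at 10 μg, with overlap between all groups. Vmn2r116, the receptor of the tear peptide ESP1, had 2.28, 2.75 and 2.48 in control retinas, 2.04, 2.17 and 2.06 at 1 μg and 1.86, 2.18 and 2.37 at 10 μg. All its values lay below 3, and the 10 μg arrays overlapped both other groups.

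The 1-gene probe sets with the highest mean values were those of Vmn2r58, Vmn2r33, Vmn2r45, Vmn2r55, Vmn2r29, Vmn2r3, Vmn2r35 and Vmn2r1. Vmn2r58 had 6.91, 7.25 and 6.89 in control retinas, 7.27, 6.78 and 6.39 at 1 μg and 6.83, 6.82 and 6.31 at 10 μg, with all 10 μg arrays below control. Vmn2r33 had 6.52, 6.80 and 6.68 in control retinas, 6.70, 6.69 and 6.98 at 1 μg and 6.94, 7.05 and 6.64 at 10 μg. In these 8 the difference at 10 μg lay between -0.49 and 0.21, and 7 of the 8 were below 0. Outside family C and these 8, Vmn2r56 was among the 4 lowest at 10 μg. It had 5.34, 5.22 and 5.15 in control retinas, 4.60, 4.36 and 4.97 at 1 μg and 5.25, 4.40 and 4.79 at 10 μg. All its 1 μg arrays lay below control, with a difference of -0.59, the lowest of the 116 at that dose, while 1 array at 10 μg lay within control. The 4 own probe sets of genes annotated as pseudogenes by name had a median of 0.21 at 10 μg and 0.07 at 1 μg. The 11 own probe sets of genes from Vmn2r29 to Vmn2r51 had a median of 0.29 at 10 μg, with 7 above 0 and 4 below.

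Genes known from vomeronasal sensory neurons, families that hold V2R ligands and other class C receptors were read from lists of known members. At 10 μg 55.7% of all named probe sets were higher, with a median of 0.02, 17.4% had an unadjusted p below 0.05 and 0.0197% passed limma's adjusted test. Of the 19 vomeronasal neuron genes, 13 were higher and 6 lower at 10 μg, with a median of 0.07 and 0 past limma's adjusted test (4 at an unadjusted p below 0.05). Of 14 exocrine gland-secreted peptides, which include the V2R ligand Esp1, 11 were higher and 3 lower, with a median of 0.18, 0 past the adjusted test and 4 at an unadjusted p below 0.05. The 5 major urinary protein genes, another group of V2R ligands, had mean values of 2.12 to 4.17 and a median of 0.24 at 10 μg, with 0 past the adjusted test and 0 at an unadjusted p below 0.05. Of 20 other class C receptors, among them Gabbr1, Gabbr2 and Grm6 of retinal synapses, 14 were higher and 6 lower, with a median of 0.06, 0 past the adjusted test and 4 at an unadjusted p below 0.05. Between the doses 0 genes of any of these lists passed the adjusted test, and the ordinary test was not run on the lists. The type 1 receptor probe sets of 1 gene (180) had a median of 0.19 at 10 μg and the olfactory receptor ones (1108) of 0.14, beside 0.16 for the V2Rs of 1 gene.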

How the data were processed

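RNA of mouse retina pools (4 retinas each, 300 ng per array by the labels) was measured on 9 Affymetrix Mouse Gene ST arrays, in 3 groups of 3 given by the sample labels. The authors deposited log2 values made by Robust Multi-Average (RMA) in Affymetrix Expression Console 1.1: background correction, quantile normalization and 1 summary value per probe set, all of which were kept. The array is a Mouse Gene 1.0 ST in the paper's methods, but its identifiers here matched the annotation of a later design. Genome build and scan dates were not given in the sources used here. The table held 0 columns outside the 9 samples. Precision is set by the number of arrays, since intensities carry no depth. Over all named probe sets, a difference had a 95% confidence interval of 0.212 to either side in the median, with a median standard error of 0.093. It was less precise for the V2R probe sets named by rule, whose standard errors were 0.121 to 0.324. Array medians lay between 5.88 and 6.04, and pairs of arrays correlated at 0.971 to 0.991.

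By the platform annotation 23521 probe sets named 1 gene, 1820 several and 16004 none. All 130 symbols of the members were matched by gene ID to RefSeq (GRCm38.p6), with 0 changes. Rows sharing all 9 values were counted once: a pair naming Vmn2r113, and the 17-gene probe set with one naming 8 neighbouring genes.

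Differences came from limma 3.58.1 (R 4.3.3) with moderated variances, fitted to the 3 groups at once. P-values were adjusted by Benjamini and Hochberg's method across all 25341 probe sets with a symbol, at 0.05. The paper's thresholds, a fold over 2 and p below 0.05, were applied unadjusted; it names no test for the arrays. The script was tested on simulated data. Identity of upstream sequence was counted over a global alignment with gaps included (Biopython 1.88, match 1, mismatch 0, gap opening -2, gap extension -0.5). Figures used matplotlib 3.10.9 in Python 3.11.15. Alternatives changed the variance model (intensity trend, robust prior, weights per array, ordinary test, a replicate block, a fit to the compared groups alone), the scaling (median centring, cyclic loess), the probe sets (those with a mean under 6.22, the median, removed; those with no symbol added; several-gene ones removed; identical rows all counted) and the arrays (each one removed).

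The members, gene lists and rules were chosen with earlier results of these data known. Named by rule were, among several-gene probe sets, the 6 highest and 3 lowest differences at 10 μg and the 3 naming the most genes. Among probe sets of 1 gene, the rule took the 8 of highest mean, the 4 highest and 4 lowest differences at 10 μg, the 3 highest and 3 lowest between the doses, family C and Vmn2r116. Vmn2r51, Vmn2r83 and the genes whose sequences are printed lie outside this rule and were chosen with their values known. The authors' supplementary comparisons were not used.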

Additional observations from a re-analysis of the deposited data

How the results depend on the processing

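With 3 arrays in a group the adjusted test is sensitive to single arrays and to the variance model. The count of V2R probe sets past limma's adjusted test at 10 μg against control, 0, was 2 with an intensity trend, 2 with median centring and 1 with cyclic loess, and 0 to 8 when each array was left out in turn. At 1 μg against control and between the doses it was 0 under every alternative run. The share of all named probe sets past the adjusted test under these alternatives is not given. The count of several-gene probe sets over 2-fold with an unadjusted limma p below 0.05 at 10 μg, 0, was 0 to 5 when each array was left out. It was 1 without control replicate 1 and 5 without 10 μg replicate 3, where 1.1% and 1.49% of all named probe sets met these thresholds. The median of the 1-gene probe sets turned to -0.077 at 10 μg against control and to -0.039 between the doses when dim probe sets were left out, which kept only 4 V2R probe sets, 2 of them of 1 gene. With array weights the several-gene median at 1 μg was 0.27, against 0.42. Leaving out each array gave several-gene medians of 0.53 to 0.81 at 10 μg against control, 0.27 to 0.60 at 1 μg against control and 0.10 to 0.36 between the doses. With probe sets of 1 gene only, the several-gene results have no value. Apart from the 9 values that changed, 237 recomputed values kept their direction and call, or moved by less than the spread between arrays. This rule is loose. The spread was 0.33 for several-gene probe sets, above their median of 0.26 between the doses, so a loss of that median would count as kept. A count of 0 could not fall. The 1-gene median at 1 μg against control, -0.02, counted as kept although it changed sign. It was 0.05 without control replicate 1 and 0.03 without 1 μg replicate 2.

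The replicate numbers did not pair the arrays: deviations of arrays with the same number had correlations of -0.201 to 0.126 between groups. With the number as a replicate block, 0 V2R probe sets passed in any of the 3 comparisons. An unadjusted p below 0.05 was found for 26 between the doses, 37 at 10 μg and 10 at 1 μg. Shares of all named probe sets in that fit are not given.

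Most V2R probe sets of 1 gene had values at the low end of the arrays; the level of background was not measured here.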
